A study of Mus musculus with 3 samples.

Results

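The genes of the 19 WNT ligands, the 10 Frizzled receptors and the 5 receptors Lrp5, Lrp6, Ror1, Ror2 and Ryk, called co-receptors below, were followed through 3 lists of accessible regions from mouse cells. The 34 genes were taken by name, out of 21938 coding genes in the GENCODE M21 annotation. No measured value was used to pick them, but earlier results of these data were known. Every listed peak that overlapped the body of such a gene, or the 20 kb on either side of it, was counted. This gave 300 of 129843 peaks in the first list, SOX2-ON, 350 of 131520 in SOX2-OFF and 344 of 130348 in CEpiLC. Merged where they overlapped, they formed 497 regions, of which 78 overlapped the 1 kb around a transcription start in the annotation and 419 lay farther away and are called distal.

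The data were ATAC-seq, in which a transposase tags exposed DNA, on mouse embryonic stem cells of the HM1 line (strain 129) after 72 h of differentiation towards caudal epiblast-like cells (CEpiLCs), the progenitors of the posterior body. All 3 samples were given 10 ng/ml bFGF with 5 µM LGK974, an inhibitor of Porcupine and so of WNT secretion, and then, from the end of the second day, also CHIR99021, which turns on the pathway inside the cell by inhibiting GSK3. The CEpiLC sample was labelled wild type, with no doxycycline listed. The paper used the parent line HM1 TetON, with the activator rtTA at Rosa26, as its wild-type control. SOX2-ON and SOX2-OFF came from 1 clone of that line, without functional endogenous Sox2 and with a doxycycline-inducible Sox2 transgene at Hprt. The clone received 1 µg/ml doxycycline throughout differentiation in SOX2-ON, whereas the drug was removed in SOX2-OFF. Each group had 1 sample, so no difference could be compared with a spread between replicates and no test was made. Instead, each count over the WNT genes is set beside the share over all coding genes or regions.

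WNT ligands are secreted lipid-modified proteins that bind Frizzled receptors. With Lrp5 or Lrp6, they stabilise β-catenin, which acts with TCF and LEF factors on chromatin, and with Ror1, Ror2 or Ryk they act on cell polarity and movement. In the posterior epiblast, WNT signalling maintains axial progenitors and directs them to mesoderm. An open region at a ligand gene does not measure how much ligand was made, and in these cells secretion was blocked by the inhibitor.

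The start peaks of the marker genes bore on the label of the cells. T, Cdx1, Cdx2, Nkx1-2 and Fgf8, which mark caudal epiblast, had a start peak in every list, as did the pluripotent epiblast genes Pou5f1, Nanog, Klf4, Fgf5 and Otx2. Of 5 fibroblast genes, Col1a1, Col1a2 and Thy1 had one in every list, Col3a1 had none in any list and Dcn had one in SOX2-OFF and CEpiLC. The presence of a start peak therefore did not separate these cell types. By rank within a list, given as percentiles defined below, 4 of the 5 caudal genes were higher in CEpiLC than in SOX2-ON. Of the 5 pluripotent genes, 3 were higher in SOX2-ON and 2 in CEpiLC. Between these samples, Klf4 (51.1 in SOX2-ON, 19.4 in CEpiLC), Pou5f1 (47.2, 26.1) and Cdx2 (16.4, 39.9) differed by at least 20 points, against 8.96% and 9.08% of coding genes in the 2 directions. In such bulk material, fewer cells with an open site and less opening per cell cannot be told apart. Peaks were also unevenly spread, at 128 per Mb on chromosome 6 in SOX2-ON and 134.6 in SOX2-OFF against 42.2 in CEpiLC, and at 180 per Mb on chromosome 11 in CEpiLC against 59.6 and 61.1. Wnt2, Wnt5b, Wnt7a, Wnt16 and Lrp6 lie on chromosome 6, and Wnt3, Wnt3a, Wnt9a, Wnt9b and Fzd2 on chromosome 11, so their values are read against these chromosomes. No WNT gene of the set lies on chromosome 8, which had a similar excess in the engineered clone.

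The sequences below belong to distal regions that differed strongly in presence or rank between lists, to the strongest region that all lists shared, near Wnt11, and to promoters whose coverage differed. Each region sequence is the central 200 bases of its strongest peak, on the plus strand of GRCm38 (mm10), and each promoter is the 250 bases before a RefSeq start, written 5′ to 3′ on the strand of the gene. Capitals mark matches, on either strand, to the TCF/LEF motif CTTTGAA or CTTTGAT, the SOX motif CATTGTT or CATTGTG, the CDX/HOX motif TTTATGG or TTTATTG, the T-box motif TCACACC or the OCT motif ATGCAAA.
Wnt5a, SOX2-ON alone, chr14:28513047-28513246: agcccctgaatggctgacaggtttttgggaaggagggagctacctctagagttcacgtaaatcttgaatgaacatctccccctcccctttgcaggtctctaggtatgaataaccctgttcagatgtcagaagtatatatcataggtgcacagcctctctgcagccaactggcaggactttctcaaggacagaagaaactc
Fzd9, SOX2-ON and CEpiLC, chr5:135253890-135254089: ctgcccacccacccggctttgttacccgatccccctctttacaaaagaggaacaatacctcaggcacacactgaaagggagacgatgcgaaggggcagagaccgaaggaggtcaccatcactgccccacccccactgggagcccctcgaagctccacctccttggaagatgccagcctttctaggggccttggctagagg
Wnt10b, SOX2-ON and SOX2-OFF, chr15:98753109-98753308: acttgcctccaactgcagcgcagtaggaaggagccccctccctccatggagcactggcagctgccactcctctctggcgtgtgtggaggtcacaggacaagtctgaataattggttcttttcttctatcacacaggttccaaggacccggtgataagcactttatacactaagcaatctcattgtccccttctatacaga
Wnt10a, SOX2-OFF and CEpiLC, chr1:74797426-74797625: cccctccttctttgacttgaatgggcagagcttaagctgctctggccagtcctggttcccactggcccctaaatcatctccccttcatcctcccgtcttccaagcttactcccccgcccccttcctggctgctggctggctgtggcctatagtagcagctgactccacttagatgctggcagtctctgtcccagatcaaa
Wnt6, CEpiLC alone, chr1:74775786-74775985: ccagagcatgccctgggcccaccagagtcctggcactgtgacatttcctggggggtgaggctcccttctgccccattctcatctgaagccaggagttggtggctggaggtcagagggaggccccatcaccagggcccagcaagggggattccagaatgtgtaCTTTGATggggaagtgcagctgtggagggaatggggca
Wnt8b, strongest in SOX2-ON, chr19:44514889-44515088: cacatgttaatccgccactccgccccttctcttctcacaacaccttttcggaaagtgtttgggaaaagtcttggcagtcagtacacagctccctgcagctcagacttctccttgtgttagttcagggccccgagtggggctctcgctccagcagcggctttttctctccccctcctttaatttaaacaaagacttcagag
Ryk, strongest in SOX2-ON, chr9:102924678-102924877: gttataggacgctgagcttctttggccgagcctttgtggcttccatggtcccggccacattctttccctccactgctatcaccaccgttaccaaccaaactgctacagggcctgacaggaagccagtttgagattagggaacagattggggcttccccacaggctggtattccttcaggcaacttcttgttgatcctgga
Lrp6, every list, chr6:134535165-134535364: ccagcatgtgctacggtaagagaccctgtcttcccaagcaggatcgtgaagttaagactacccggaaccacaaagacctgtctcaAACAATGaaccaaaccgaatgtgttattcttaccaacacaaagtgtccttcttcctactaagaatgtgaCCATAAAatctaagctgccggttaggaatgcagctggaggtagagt
Wnt11, every list, chr7:98815703-98815902: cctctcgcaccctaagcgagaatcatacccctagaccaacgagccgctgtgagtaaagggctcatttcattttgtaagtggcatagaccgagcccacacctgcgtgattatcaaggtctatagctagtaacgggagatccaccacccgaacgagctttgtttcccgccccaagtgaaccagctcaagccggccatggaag
Wnt8b promoter, chr19:44493222-44493471, plus strand: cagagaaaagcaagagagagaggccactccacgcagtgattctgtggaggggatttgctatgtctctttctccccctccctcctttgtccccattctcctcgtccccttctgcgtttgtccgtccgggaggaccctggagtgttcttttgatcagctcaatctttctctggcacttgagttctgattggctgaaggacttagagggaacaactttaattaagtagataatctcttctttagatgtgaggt
Wnt5b inner promoter, chr6:119467212-119467461, minus strand: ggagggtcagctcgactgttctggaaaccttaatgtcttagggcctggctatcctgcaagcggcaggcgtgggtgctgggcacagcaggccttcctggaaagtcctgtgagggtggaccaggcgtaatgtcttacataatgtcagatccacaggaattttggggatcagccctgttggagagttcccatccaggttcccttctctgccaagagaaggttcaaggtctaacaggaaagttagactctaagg
Capitals stand in 2 of these sequences. In the Wnt6 intron the TCF/LEF letters CTTTGAT began at position 163 of the 200, and in the Lrp6 intron a SOX match began at position 86 and a CDX/HOX match at position 155, both on the minus strand. Over all 419 distal regions of the WNT genes, 30 (7.16%) held the TCF/LEF motif in their central 200 bases, against 7.72% of 125555 distal regions of coding genes. The SOX motif was found in 23 (5.49%, against 6.43%), the CDX/HOX motif in 17 (4.06%, against 5.18%), the T-box motif in 23 (5.49%, against 3.59%) and the OCT motif in 8 (1.91%, against 3.65%). The RefSeq table had 27 promoters for 24 of the 34 genes, of which Wnt5b and Wnt11 carried a TCF/LEF match, Wnt16 a SOX match and Wnt2 and Wnt5b a CDX/HOX match. The same motifs were in 7.48%, 6.86% and 6.51% of all 32851 promoters. A match to these letters is a description of the sequence and not evidence of binding.

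Nearly every WNT gene had an open start in every list. A start peak, defined as a peak overlapping the 1 kb either side of an annotated start, was listed for 33 of the 34 genes in SOX2-ON, against 74.9% of all coding genes. In SOX2-OFF it was listed for 34 (75.8% of coding genes) and in CEpiLC for 34 (76.3%). All 3 lists held it for 33 of the 34 genes, against 71.8% of coding genes. In a list ordered by −log10 p, many of the start peaks of these 33 genes were among the strongest 20000. The counts were 25 of 33 in SOX2-ON, with 24 in SOX2-OFF and 27 in CEpiLC. Over the 15748 coding genes with a start peak in all 3 lists they were 13145, 13671 and 13519, a larger share in each list.

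The exception was Wnt8b, a ligand gene best known from the developing forebrain. It has 2 annotated starts, at chr19:44493472 and, inside the gene, at chr19:44510321. At the inner start, SOX2-ON had its nearest peak 1053 bp away (chr19:44511374-44512051, rank 28458), which fell just outside the 1 kb window, whereas SOX2-OFF had a peak over the start (rank 21451) and CEpiLC one 713 bp away (rank 17256). With a window of 2 kb, Wnt8b had a start peak in SOX2-ON too. At the outer start the peak in CEpiLC covered all 250 bases of the promoter sequence shown above but was weak (rank 105926 of 130348), and neither SOX2-ON nor SOX2-OFF covered any of them. Their nearest peaks stopped 1313 and 1356 bp short of that start.

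Wnt5b, a ligand that mostly signals without β-catenin, has several starts that were covered differently. Its inner promoter at chr6:119467212-119467461 was covered over 0 of 250 bases in SOX2-ON, with 250 in SOX2-OFF and 182 in CEpiLC, by peaks of rank 43926 and 49312 in the latter lists. The nearest SOX2-ON peak (rank 66132) began 330 bp from the start. The other promoters of Wnt5b were covered completely in all lists.

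To compare strength without mixing depths, the start peaks of the 15748 coding genes that had one in every list were ordered by −log10 p within each list and given a percentile, where 100 is the strongest. All coding genes have a median of 50 on this scale by construction. Ligand starts ranked below it, and Frizzled starts ranked above ligands but around that median. The median percentile of 18 ligands was 19.5 in SOX2-ON, with 15.6 in SOX2-OFF and 17.2 in CEpiLC. The median of the 10 Frizzled genes was 63.9, 52.7 and 47.8 in the same order, and that of the 5 co-receptors was 35.6, 32.9 and 35.1. The groups overlapped, since ligands reached 57.1, 53.3 and 62.6 and Frizzled genes went down to 26.7, 27.1 and 29.3. The start peaks were wide, with median widths of 1822 bp in SOX2-ON, with 2230 bp in SOX2-OFF and 2275 bp in CEpiLC over the 33 genes, against 1333, 1443 and 1392 bp over the coding genes.

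**Figure D1:**
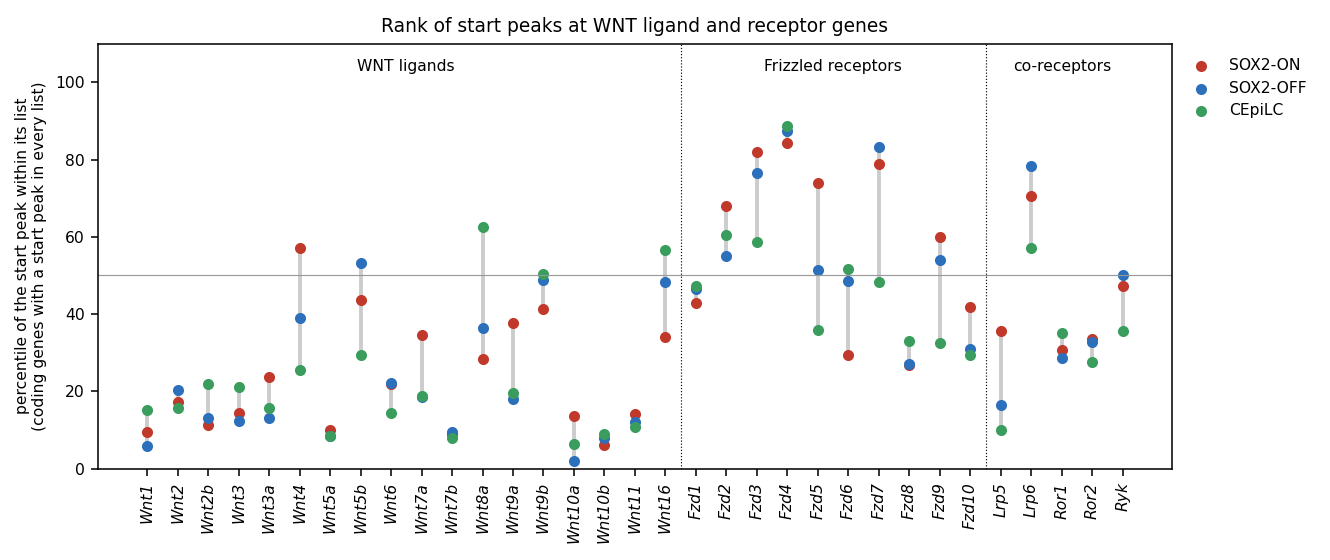
Percentile of the start peak within its list (y axis; 100 is the strongest) for the 33 genes with a start peak in every list, ordered as ligands, Frizzled receptors and co-receptors. Each point is 1 sample, coloured by group, and the grey bar joins the lowest and highest. Most ligands lie under 40, Fzd3, Fzd4 and Lrp6 lie above 57 in every list, and the bars of Fzd5, Fzd7, Wnt8a and Wnt4 are the longest.

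Percentiles differed little between lists for many genes. The gap between a gene's highest and lowest percentile was under 10 points for 14 of 33 genes (42.4%, against 47.3% of coding genes), with a median of 11.6 points against 10.6. A gene's percentile is that of its strongest start peak, and for Wnt5a, Wnt10a and Wnt11 the peaks taken in the 3 lists shared no base (3 of 33 genes, against 4.02% of coding genes). Over the other 30 genes the gap was under 10 points for 12 (40%, against 46.6%), with a median of 12.7 against 10.8. Among these steady genes were ligands at the bottom of every list, Wnt7b at 8.90 in SOX2-ON, with 9.41 in SOX2-OFF and 8 in CEpiLC and Wnt10b at 6.16, 7.94 and 9.03. At the top, Fzd4, the receptor of the non-WNT ligand Norrin, had 84.2, 87.4 and 88.6.

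The 3 genes with separate sites were compared site by site. Wnt5a, which guides axis elongation, had percentiles of 9.95, 8.33 and 8.47, but the SOX2-ON value came from its inner starts and the others from its outer starts. At the outer starts its peak ranked 55416 in SOX2-ON, with 28357 in SOX2-OFF and 28224 in CEpiLC, and at the inner starts 29904, 30873 and 35751. The outer site thus ranked lowest in SOX2-ON, and its peak there began 72 bp past the first start. Wnt11 had percentiles of 14.1, 12.1 and 10.8, with the CEpiLC value from another site. Its outer site ranked 45183, 28909 and 23561 and its inner site 22710, 21093 and 26069. Wnt10a, at 13.5, 1.95 and 6.45, had its SOX2-OFF value from a weak peak at the first start (rank 72935). The stronger peak near its second start ranked 23489 in SOX2-ON, with 24249 in SOX2-OFF and 35166 in CEpiLC, but in SOX2-OFF it lay 1052 bp from the start, just outside the window, so the low percentile was not a difference at 1 site.

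A shift of at least 20 percentile points was called a rank difference. Between SOX2-ON and SOX2-OFF, 1 of 33 genes was higher in SOX2-ON, against 1.7% of coding genes, and 0 were higher in SOX2-OFF, against 2.2%. The gene was Fzd5, a receptor known from eye and yolk sac development, at 74.0 in SOX2-ON and 51.4 in SOX2-OFF. It continued down to 35.8 in CEpiLC, so its 3 samples were ordered SOX2-ON, SOX2-OFF, CEpiLC. Its peaks had fold enrichments over local background of 3.58, 2.35 and 2.13 and nearly equal widths of 2635, 2999 and 2896 bp. When ranked by fold enrichment, its shift between SOX2-ON and SOX2-OFF was 18.8 points and no longer reached the threshold.

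More genes passed the threshold against CEpiLC than between the samples of the clone, as did more coding genes in general. Only Fzd7, Fzd9 and Wnt8a passed it against CEpiLC in both samples of the clone. SOX2-ON was higher than CEpiLC for 6 of 33 genes, against 8.96% of coding genes, and CEpiLC was higher than SOX2-ON for 3, against 9.08%. SOX2-OFF was higher than CEpiLC for 4 genes, against 4.06%, and CEpiLC was higher than SOX2-OFF for 1, against 4.55%. The 6 genes that ranked higher in SOX2-ON than in CEpiLC were Fzd5 (shift of 38.2 points), Wnt4 (31.6), Fzd7 (30.8), Fzd9 (27.4), Lrp5 (25.8) and Fzd3 (23.1), so 4 of them were Frizzled receptors. Ranked by fold enrichment, Fzd7 (19.0 points), Fzd9 (16.4) and Fzd3 (19.2) lay just under the threshold, whereas Fzd5, Wnt4 and Lrp5 stayed above it. These comparisons share samples and are not independent of each other.

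Fzd7, a main Frizzled receptor of embryonic stem cells, had percentiles of 79.0 in SOX2-ON, with 83.2 in SOX2-OFF and 48.2 in CEpiLC, so both samples of the clone were high. Its start peak was 1650 and 1531 bp wide in the clone and 2614 bp in CEpiLC. Fzd9 followed the same pattern with 60, 54.0 and 32.6, and Fzd3, which acts in planar cell polarity, had 81.9, 76.6 and 58.7. Wnt4, a ligand needed for kidney and ovary formation, had 57.1, 39.0 and 25.4. Lrp5, a β-catenin co-receptor, had 35.6, 16.4 and 9.85, with SOX2-ON apart from the others.

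The opposite order was seen at Wnt8a, Wnt16 and Fzd6. Wnt8a, a ligand of the posterior epiblast, had percentiles of 28.3 in SOX2-ON, with 36.3 in SOX2-OFF and 62.6 in CEpiLC, and was the gene that ranked higher in CEpiLC than in either sample of the clone. Its fold enrichments were close, at 2.98, 2.64 and 2.65, and ranked by them its shift between SOX2-ON and CEpiLC was -15.4 points, under the threshold. Wnt16 had 34.0, 48.4 and 56.7, and Fzd6, a planar polarity receptor, had 29.3, 48.7 and 51.6. For both, SOX2-OFF lay nearer to CEpiLC than to SOX2-ON. The start peaks of the ligands most linked to the primitive streak and tail bud shifted less: Wnt3 had 14.4, 12.4 and 21.1, and Wnt3a had 23.7, 13.2 and 15.6. Both lie on chromosome 11, where the median start shift against CEpiLC was -8.77 points for SOX2-ON and -11.7 for SOX2-OFF. Their values are given before these medians are taken off.

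SOX2-OFF ranked higher than CEpiLC at Fzd7 (35.0 points), Wnt5b (24.0), Fzd9 (21.4) and Lrp6 (21.3). Wnt5b had percentiles of 43.6, 53.3 and 29.3, and Lrp6, the other β-catenin co-receptor, had 70.6, 78.4 and 57.1. Both lie on chromosome 6, where start peaks of all coding genes had a median shift of 7.45 points in the same direction. With this median taken off, Wnt5b was at 16.5 and Lrp6 at 13.8 points, under the threshold. Ranked by fold enrichment, only Fzd7 of the 4 kept a shift of 20 points against CEpiLC. The Wnt5a receptors Ror1 (30.6, 28.5 and 35.1), Ror2 (33.5, 32.9 and 27.5) and Ryk (47.4, 50 and 35.7) had no shift of 20 points.

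The remaining genes were Wnt1, a ligand of the midbrain (9.39 in SOX2-ON, with 5.93 in SOX2-OFF and 15.2 in CEpiLC), Wnt2 (17.3, 20.4 and 15.6), Wnt2b (11.3, 13.1 and 22) and Wnt6 (21.8, 22.1 and 14.4). Wnt7a had 34.5, 18.4 and 18.7 and Wnt9a had 37.8, 18.1 and 19.5, each highest in SOX2-ON by under 20 points. Wnt9a was 18.3 points higher in SOX2-ON than in CEpiLC, on chromosome 11, where start peaks had a median shift of -8.77 points. With chromosome medians taken off, Wnt9a passed the threshold, and 7 genes instead of 6 ranked higher in SOX2-ON than in CEpiLC. Wnt9b was at 41.3, 48.8 and 50.3. Among the receptors, Fzd1 had 42.9, 46.5 and 47.4, Fzd2 67.9, 55.1 and 60.4, Fzd8 26.7, 27.1 and 33.0, and Fzd10 41.9, 30.9 and 29.3. None of these genes reached the threshold in any pair before chromosome medians were taken off.

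The other genes of the pathway outside the cell, 30 in all, which carry, bind or antagonise the ligands or set receptor levels, were counted beside them. A start peak was listed for 30 of them in SOX2-ON, with 28 in SOX2-OFF and 28 in CEpiLC. Of the 28 with a peak in every list, 0 ranked at least 20 points higher in SOX2-ON than in CEpiLC, against 8.96% of coding genes, and 7 ranked higher in CEpiLC, against 9.08%. The 7 were the ligand carrier Wls (27.6 in SOX2-ON, with 62.5 in SOX2-OFF and 77.9 in CEpiLC), the R-spondin receptor Lgr5 (30.8, 52.3 and 59.9), the antagonists Dkk1 (23.4, 30.0 and 50), Frzb (20.8, 33.1 and 44.8) and Wif1 (53.4, 73.0 and 76.2), the R-spondin Rspo2 (15.1, 29.1 and 36.5) and the ligase Rnf43 (35.2, 43.3 and 57.3). Wls and Lgr5 were also higher in SOX2-OFF than in SOX2-ON, and Dkk1 and Notum were higher in CEpiLC than in SOX2-OFF (background 2.2% and 4.55%). Rnf43 and Notum lie on chromosome 11, and with the median of each chromosome taken off their shifts were -13.3 and -11.8 points, under the threshold, as was that of Dkk1 from SOX2-OFF at -19.7. These 30 genes were not ranked again by fold enrichment, under which several shifts of the WNT ligand and receptor genes fell below the threshold. The start peaks absent from SOX2-OFF and CEpiLC were those of Sost and Ndp.

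Distal regions of the WNT genes were held by all lists in a larger share than those of coding genes in general. Of 419 regions, 131 (31.3%, Wilson 95% interval 27.0 to 35.9, counting error only) were in all 3 lists, against 22.2% of the 125555 regions in coding gene windows. CEpiLC alone held 80 (19.1%, background 22.4%), SOX2-OFF alone 68 (16.2%, background 16%) and SOX2-ON alone 48 (11.5%, background 17.3%). These shares depended on how many weak peaks were counted. Among the strongest 50000 peaks of each list, all 3 lists held 28.6% against 28.8% of coding gene regions, so the larger share was not seen there, and with a −log10 q of at least 2 it was 27.3% against 25.4%. At −log10 q of at least 5, SOX2-ON alone held 26.5% (29.3% of all) and CEpiLC alone 2.04% (2.64%), which turned their order. SOX2-ON and SOX2-OFF together held 42 (background 10.5%), SOX2-OFF and CEpiLC 36 (background 7.79%) and SOX2-ON and CEpiLC 14 (background 3.72%). Regions are not replicates, and neighbouring genes such as Wnt3 and Wnt9b, Wnt3a and Wnt9a, Wnt1 and Wnt10b, and Wnt6 and Wnt10a share some of them.

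Without chromosomes 6, 8 and 11, the share in all 3 lists was 32.5% of 249 regions, against 24.9% of 84484. The share in SOX2-ON alone was 10.4% against 17.2%, and that in CEpiLC alone was 25.3% against 22.5%. Of the 63 regions in CEpiLC alone, 21 were at the single gene Ror2, so this last share rested largely on it. On chromosome 6, 31 of the 120 regions of WNT genes (25.8%) were held by both samples of the clone and not by CEpiLC, against 28.1% of coding gene regions on that chromosome. On chromosome 11 the WNT genes had a smaller share in CEpiLC alone than the chromosome as a whole, a comparison chosen after the values were seen. CEpiLC alone held 10 of their 50 regions (20%), against 58.1% of coding gene regions there. For each of Wnt3a, Wnt9a, Fzd2, Wnt9b and Wnt3, the share in CEpiLC alone was 14.3% to 30% in the gene window, and 44.4% to 53.1% in the 2.5 Mb on either side of it. Each window held only 1 to 3 such regions. The surroundings of Wnt3a and Wnt9a overlap, as do those of Fzd2, Wnt9b and Wnt3, so these are not separate cases.

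**Figure D2:**
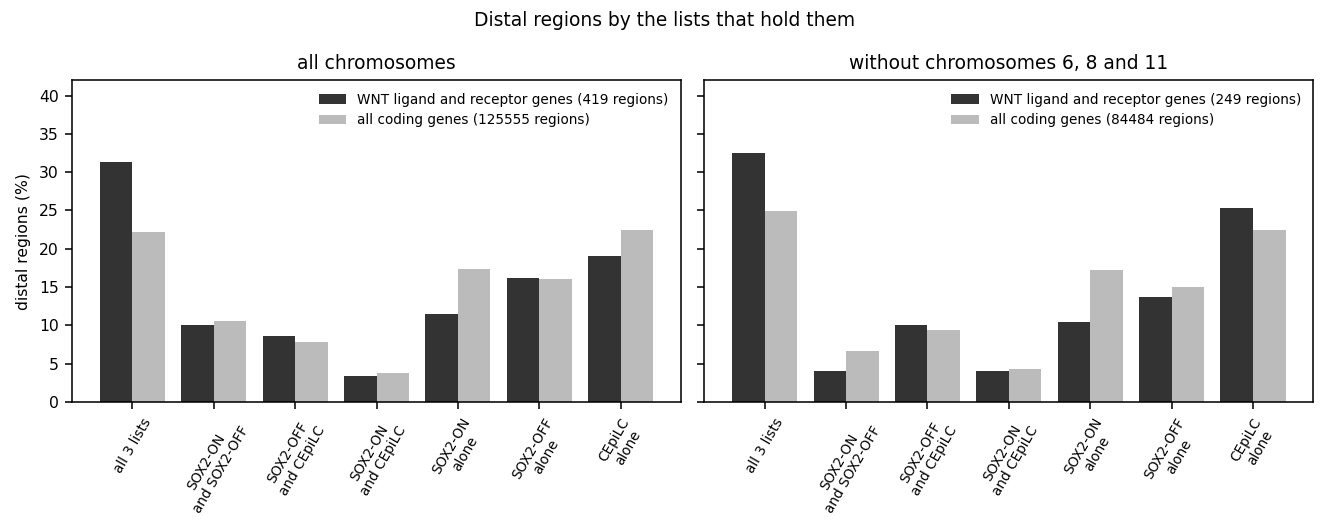
Share of distal regions (y axis, percent) held by each combination of the 3 lists (x axis), for the windows of the WNT ligand and receptor genes (dark bars) and of all coding genes (grey bars), with all chromosomes on the left and without chromosomes 6, 8 and 11 on the right. In both panels the share in every list is higher, and the share in SOX2-ON alone lower, for the WNT genes.

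By role, 78 of 225 ligand regions (34.7%) were in every list, as were 10 of 40 Frizzled regions (25%) and 43 of 154 co-receptor regions (27.9%). Distal regions were spread unevenly over genes. Frizzled genes, which are short and mostly without introns, had 2 to 7 each. Wnt16 had the highest density, with 29.8 regions per 100 kb of window, and Fzd3 the lowest, with 2.73. Wnt16 lies on chromosome 6, where both lists of the clone had many more peaks, and CEpiLC held 1 of its 15 regions. Of all 419, 207 lay over an intron, 71 over an exon and 141 between genes. Of the 48 regions in SOX2-ON alone, 13 (27.1%) overlapped an annotated exon, against 14.1% of coding gene regions in that class. For SOX2-OFF alone it was 10.3% against 14.7%, and for CEpiLC alone 10.0% against 14.4%.

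Ror2, a receptor tyrosine kinase for Wnt5a, had the most distal regions, 48 in a window of 216.8 kb. SOX2-ON held 13 of them, SOX2-OFF 26 and CEpiLC 43. CEpiLC alone held 21 (43.8%), and SOX2-OFF and CEpiLC without SOX2-ON held 9 (18.8%), whereas SOX2-ON alone held 0. Of 930 coding genes with at least 20 distal regions and off chromosomes 6, 8 and 11, the share in CEpiLC alone was 22.2% at the median, 10.2% at the 10th percentile and 37.0% at the 90th percentile. Ror2, which was picked out after these values were seen, lay above the last of these. Ror1 had the same order with 6, 8 and 13 of 18 regions. The 930 coding genes shared this order, with 51.6% held by SOX2-ON, 55% by SOX2-OFF and 60.7% by CEpiLC at the median. At Ror2 these shares were 27.1%, 54.2% and 89.6%. Lrp5, with 17, 21 and 19 of 32 regions, had no such gradient.

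Lrp6 on chromosome 6 was the reverse. Of its 46 distal regions SOX2-ON held 36, SOX2-OFF 39 and CEpiLC 13, and 18 (39.1%) were shared by both samples of the clone alone. Coding genes of chromosome 6 with at least 20 regions had 28.6% in that class at the median and 44.4% at the 90th percentile, so Lrp6 lay within the range of its chromosome. Wnt16, on the same chromosome, had 10, 10 and 1 of 15 regions. The median shares held at those coding genes of chromosome 6 were 68.8%, 73.5% and 17.4%, in the same pattern. Wnt5b, also there, differed from Lrp6 and Wnt16 with 21, 26 and 21 of 33 regions. It had 14 (42.4%) in every list, against 13.0% at the median and 30.0% at the 90th percentile of chromosome 6 genes.

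**Figure D3:**
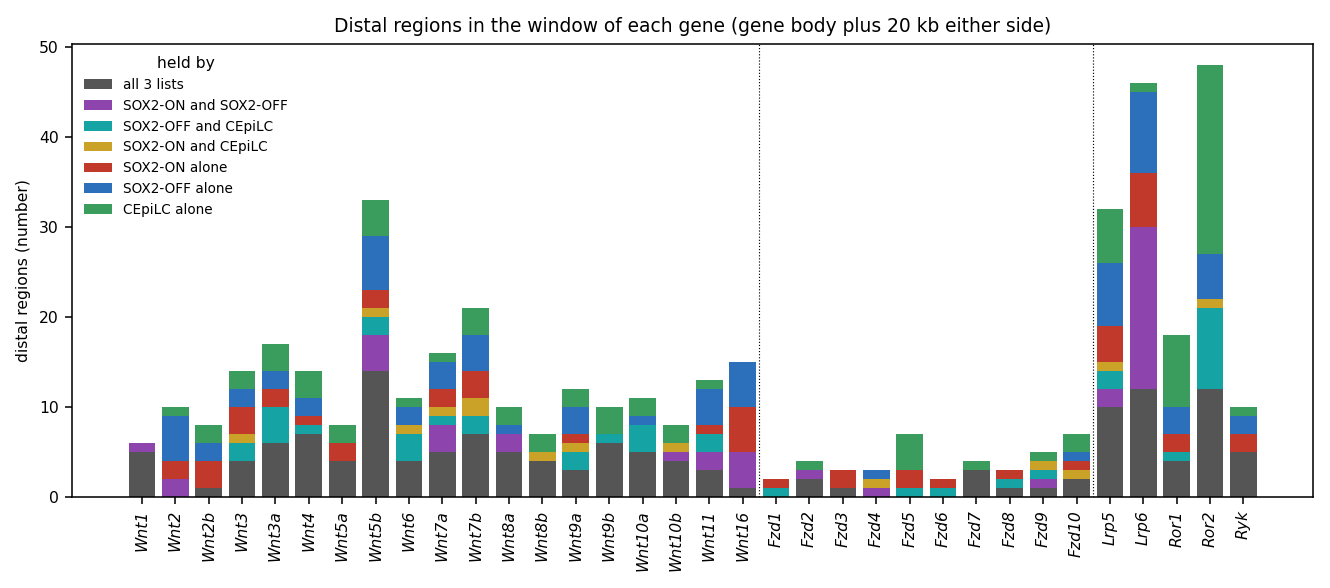
Number of distal regions (y axis) in the window of each gene, split by the lists that hold them (colours), with ligands on the left, Frizzled receptors in the middle and co-receptors on the right. Ror2 has the tallest bar, 48 regions with 21 in CEpiLC alone, and Lrp6 follows with 46, of which 18 are shared by SOX2-ON and SOX2-OFF only; a region in the windows of neighbouring genes is counted in each.

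Presence calls of weak peaks depend on depth, so strong distal peaks, those within the strongest 20000 of a list, were followed separately. A strong peak was called missing from another list when under 10% of its length was covered there. Of 20 strong SOX2-ON peaks at WNT genes, 3 were missing from SOX2-OFF, against 12.7% of such peaks at coding genes, and 3 from CEpiLC, against 20.5%. Of 17 strong SOX2-OFF peaks, 0 were missing from SOX2-ON (background 3.34%) and 0 from CEpiLC (background 2.02%). Of 15 strong CEpiLC peaks, 1 was missing from SOX2-ON (background 3.26%) and 0 from SOX2-OFF (background 1.64%). The counts are small and lay near the background.

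Wnt3, the ligand whose loss blocks primitive streak formation, and Wnt5a each had a strong SOX2-ON peak that neither other list held. At Wnt3 it was 912 bp wide over the untranslated last part of the gene (chr11:103816617-103817528), 42467 bp from the start, with a fold enrichment of 2.95 and rank 16875. At Wnt5a it was 556 bp wide over an exon inside the gene (chr14:28512869-28513424), 1418 bp from the nearest start, with a fold enrichment of 2.49 and rank 19929, just within the 20000 that were called strong. Its sequence is the first of those shown above.

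Fzd9 had the strongest of these peaks, 2402 bp upstream of its start (chr5:135253632-135254348). It ranked 11676 in SOX2-ON with a fold enrichment of 2.69 and 22413 in CEpiLC with 1.93, and was not listed in SOX2-OFF. Near Wnt10b, a peak in an intron of the neighbouring gene Arf3 (chr15:98752897-98753521) ranked 17577 in SOX2-ON and 37976 in SOX2-OFF and was not listed in CEpiLC. In the other direction, a peak in an intron of Wnt10a (chr1:74797238-74797813) ranked 13486 in CEpiLC and 21069 in SOX2-OFF and was not listed in SOX2-ON. The strongest distal region of all at these genes lay 18371 bp upstream of Wnt11 (chr7:98814859-98816741) and was in every list, at ranks 3085, 3637 and 6608.

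**Figure D4:**
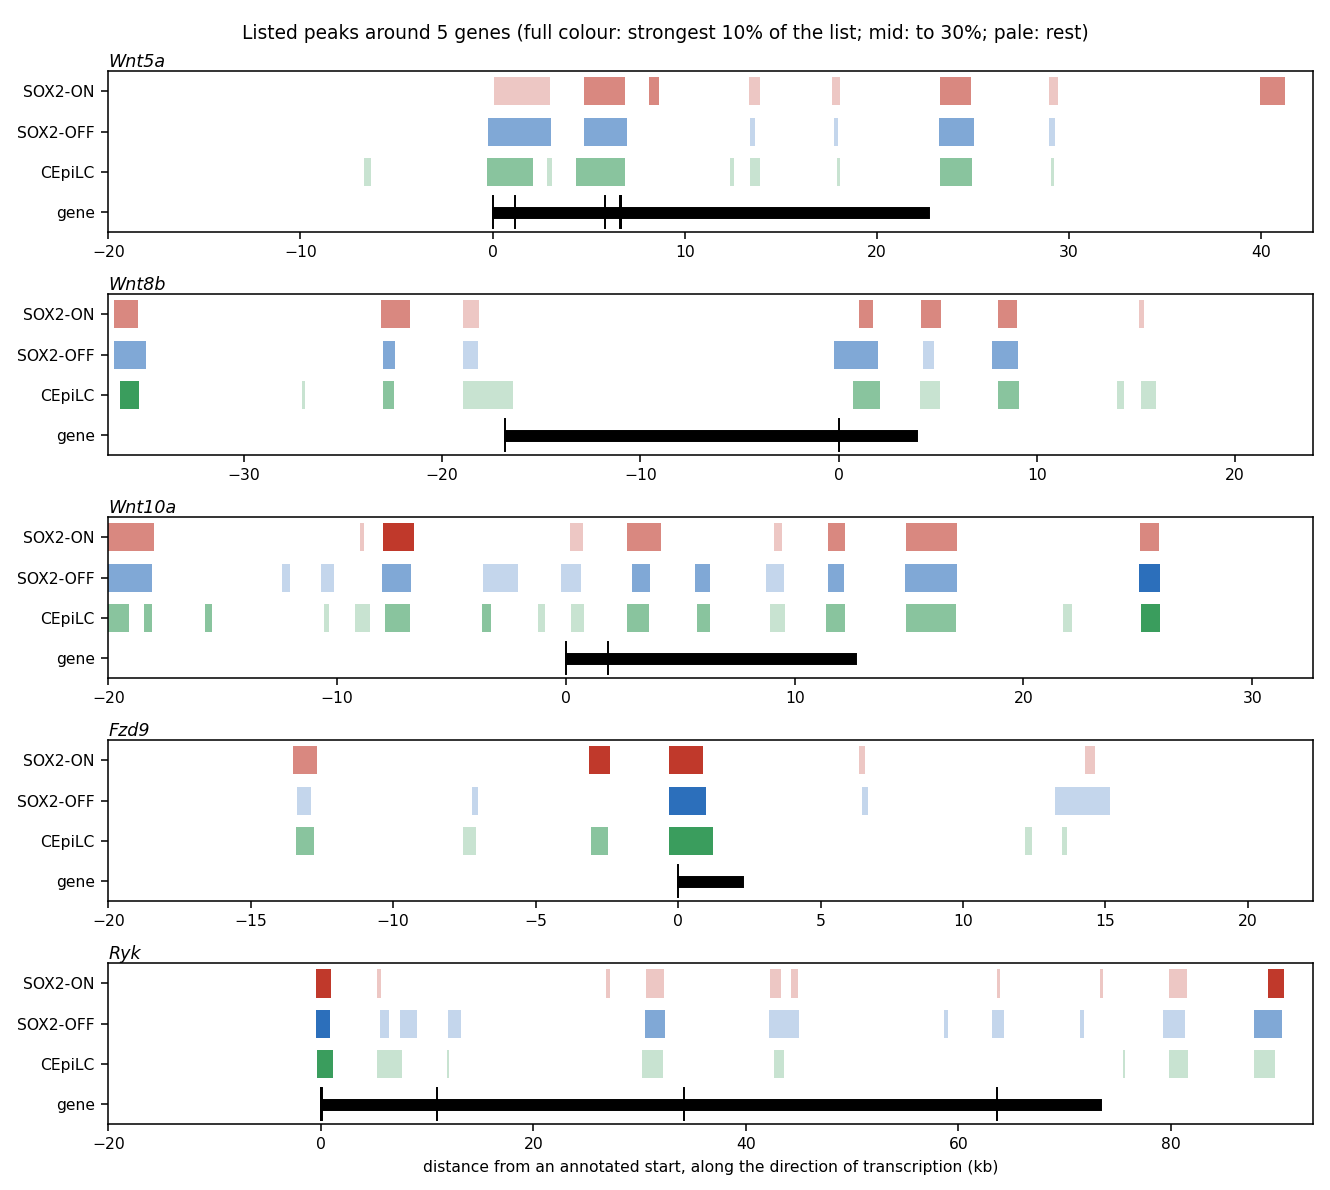
Listed peaks around 5 WNT genes by distance from an annotated start (x axis, kb, in the direction of transcription), with a row per sample, the gene as a black bar and its annotated starts as ticks. Full colour marks peaks in the strongest 10% of a list, medium colour those up to 30% and pale colour the rest. The SOX2-ON row of Wnt5a has a peak near 8 kb that the other rows lack, the SOX2-OFF row of Fzd9 lacks the peak upstream of the start, and the SOX2-ON row of Wnt10a lacks the peak near 6 kb.

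Regions held by some lists only were otherwise weaker. The other leading regions in SOX2-ON and SOX2-OFF alone were at Lrp6, at ranks 21482 and 28365 in SOX2-ON. Those in SOX2-OFF and CEpiLC alone lay in introns of Wnt5b (ranks 31415 and 41177) and Wnt3 (37963 and 81347). Fzd4 and Wnt3 had the others in SOX2-ON and CEpiLC, at ranks 29153 and 50357 in SOX2-ON. In SOX2-ON alone the next was over the untranslated part of Fzd8 (rank 21036). In SOX2-OFF alone the leaders lay near Wnt8a (55679), in Lrp6 (55807) and near Wnt9a (61022). In CEpiLC alone they lay in introns of Wnt6 (37432) and Ror2 (43308) and over the untranslated part of Wnt9b (46923), so none of the regions in SOX2-OFF alone or CEpiLC alone came near the strongest 20000.

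Distal regions that all lists held were next compared by rank, as percentiles among the 27865 such regions of coding genes. Of 131 regions at WNT genes, 22 were at least 20 points higher in SOX2-ON than in SOX2-OFF (background 14.8%) and 20 were higher in SOX2-OFF (background 15%). Against CEpiLC, 28 were higher in SOX2-ON (background 18.4%) and 27 were higher in CEpiLC (background 19.4%). SOX2-OFF was higher than CEpiLC at 16 (background 14.4%) and lower at 17 (background 14.5%). These shares, of 12.2% to 21.4%, were near the background in every direction.

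Large shifts were seen at single regions. A region 4096 bp downstream of the inner start of Wnt8b, just past the end of the gene (chr19:44514417-44515473), was at percentile 93.5 in SOX2-ON, with 5.36 in SOX2-OFF and 20.1 in CEpiLC. Its fold enrichment was 2.82, 1.38 and 1.54, so SOX2-ON stood apart from the other samples. A region 24184 bp from the nearest start of Ryk, beyond the gene (chr9:102922739-102925520), was at 98.6, 60.6 and 2.62, with fold enrichments of 4.04, 1.90 and 1.61. SOX2-OFF covered 89.6% of the SOX2-ON peak there and CEpiLC 46.7%, so the peaks compared with CEpiLC coincided only in part. An untranslated region of Wnt7b (chr15:85537224-85538095) was at 64.6, 13.5 and 0.58.

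Regions that ranked low in SOX2-ON included some at Ror2 and Fzd2. An intron of Ror2 (chr13:53204138-53205841) was at 31.7, 90.5 and 83.0, with 359, 1704 and 1657 bp covered, so here presence in every list hid a difference in extent. A region 6256 bp downstream of the start of Fzd2 (chr11:102610652-102611988) was at 3.43, 42.3 and 74.0, on a chromosome whose median shift between SOX2-ON and CEpiLC was -8.60 points.

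CEpiLC stood apart at other regions. Those near Fzd8 (57.3, 66.2 and 2.61) and upstream of Lrp5 (79.2, 87.7 and 32.3) were low in CEpiLC, and those upstream of Wnt1 (20.1, 17.7 and 73.5) and in an intron of Ror1 (6.70, 5.82 and 55.6) were high in it. The Lrp6 intron with the SOX and CDX/HOX matches shown above was at 69.2, 17.7 and 27.7. When ranked by fold enrichment all of these regions kept a shift of at least 20 points in the same direction.

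**Figure D5:**
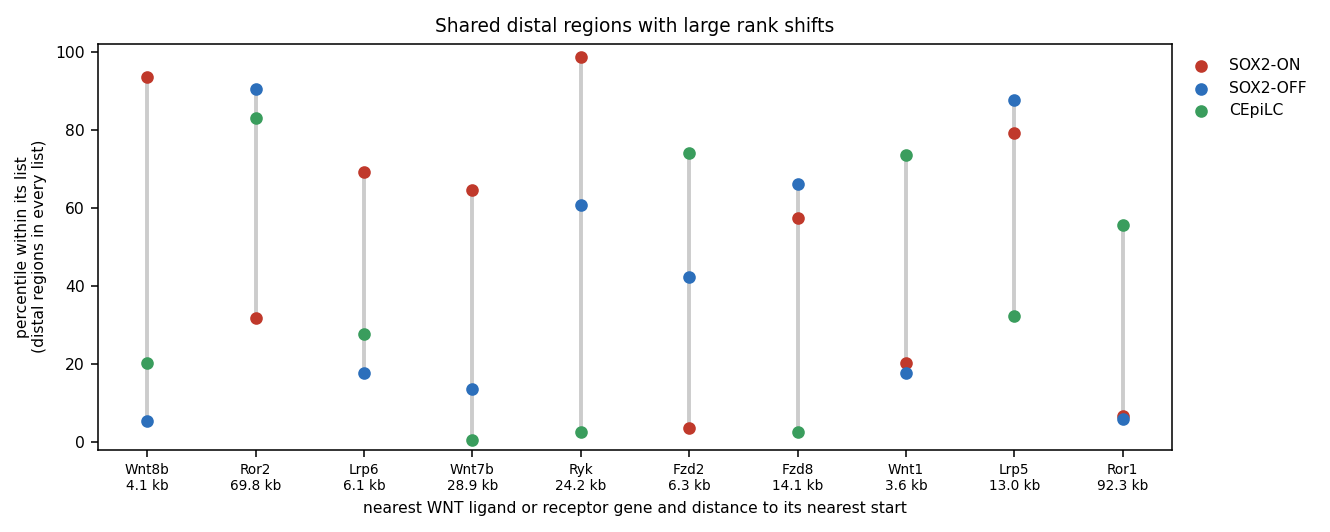
Percentile within its list (y axis; 100 is the strongest) of 10 regions with large rank shifts among those held by every list, labelled by the nearest WNT gene and the distance to its nearest start. Each point is 1 sample, and the grey bar joins the lowest and highest. SOX2-ON is alone at the top for Wnt8b, Lrp6 and Wnt7b and alone at the bottom for Ror2.

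Widths of the shared distal regions at WNT genes followed those of the whole lists. The median covered width over 131 regions was 755 bp in SOX2-ON, with 909 bp in SOX2-OFF and 706 bp in CEpiLC, against 805, 958 and 706 bp for all coding genes. A region was at least 2-fold wider in SOX2-ON than in SOX2-OFF in 9 cases (background 6.15%) and narrower in 28 (background 18.5%). SOX2-ON was wider than CEpiLC in 23 (background 17.8%) and narrower in 15 (background 10.8%), and SOX2-OFF was wider than CEpiLC in 27 (background 23.6%) and narrower in 5 (background 4.8%). The median width ratio was 0.898 for SOX2-ON over SOX2-OFF (0.879 over all regions), 1.06 for SOX2-ON over CEpiLC (1.07) and 1.17 for SOX2-OFF over CEpiLC (1.24).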

How the data were processed

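ATAC-seq was available from 1 sample each of SOX2-ON, SOX2-OFF and CEpiLC, with 50000 cells and at most 12 PCR cycles per library. The authors processed the reads with nf-core/atacseq (adapter trimming, BWA, mm10, removal of mitochondrial reads) and called broad peaks with MACS2 for each sample, with no control library described. The deposited values are the fold enrichment (a ratio over local background), the −log10 p and the −log10 q of each peak. Read depth is unknown from these lists, and whether reads were shifted to the cut site is not given in the sources used here. Weaker peaks are listed only as far as depth allows, which affects presence calls and widths.

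Peaks were joined to GENCODE M21 genes, ranked by −log10 p within each list and compared as percentiles, with a start window of 1 kb and gene windows of 20 kb (Python 3.11.15, numpy 2.4.6, pandas 2.3.3, matplotlib 3.10.9). Promoter sequences were from RefSeq (GRCm38.p6). The code was tested on simulated peaks. Every gene was described at its start, and the distal regions named were the strongest of each combination of lists and those with the largest shifts, of which 1 is not reported here. The genes, lists and rules were chosen with earlier results of these data known. Alternatives were other q thresholds, rankings, windows, thresholds and sets of chromosomes.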

Additional observations from a re-analysis of the deposited data

How the results depend on the processing

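No paired analysis was possible because the groups had a single sample each, and for the same reason no replicate could be left out. Of 171 values recomputed, 118 stayed near the value reported and 53 moved. The shifts of single genes and regions kept their sign, but the order of paired counts turned in places, as given here. The distal shares moved with the peak threshold. With −log10 q of at least 2, SOX2-ON alone held 18.2%, SOX2-OFF alone 21.9% and CEpiLC alone 10.3% (all coding genes 20.9%, 18.6% and 13.6%). With at least 5, all lists held 26.5%, SOX2-ON and SOX2-OFF 16.3%, SOX2-ON and CEpiLC 1.02%, SOX2-ON alone 26.5% and CEpiLC alone 2.04% (24.6%, 18.4%, 0.896%, 29.3% and 2.64%). With the strongest 50000 peaks of each list, SOX2-ON and SOX2-OFF held 7.14%, SOX2-OFF and CEpiLC 17.5%, SOX2-ON alone 15.9% and SOX2-OFF alone 9.52% (7.26%, 12.1%, 19.9% and 12.3%). Without chromosomes 6, 8 and 11, SOX2-ON and SOX2-OFF held 4.02% and CEpiLC alone 25.3% (6.69% and 22.5%). With each peak reduced to a fixed interval at its midpoint, all lists held 23.4% (18.1%).

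Strong distal peaks missing from another list numbered 0 for SOX2-ON from SOX2-OFF, 0 for SOX2-ON from CEpiLC and 0 for CEpiLC from SOX2-ON among the strongest 10000. Among the strongest 50000 they numbered 12 for SOX2-ON from SOX2-OFF, 7 in the reverse, 16 for SOX2-ON from CEpiLC, 20 in the reverse (an order opposite to that of 3 and 1 in the strongest 20000), 5 for SOX2-OFF from CEpiLC and 9 in the reverse. With missing set at under 50% covered, they numbered 2 for SOX2-OFF from SOX2-ON, 5 for SOX2-ON from CEpiLC, 2 in the reverse and 1 for SOX2-OFF from CEpiLC.

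Start peaks ranked by fold enrichment gave 1 gene higher in SOX2-OFF than in SOX2-ON, 3 higher in SOX2-ON than in CEpiLC and 1 higher in SOX2-OFF than in CEpiLC. A threshold of 10 points gave 9 higher in SOX2-ON than in SOX2-OFF, 2 in the reverse, 12 higher in SOX2-ON than in CEpiLC and 8 higher in SOX2-OFF than in CEpiLC. With chromosome medians taken off, and again without chromosomes 6, 8 and 11, 1 was higher in SOX2-OFF than in SOX2-ON and 2 were higher in SOX2-OFF than in CEpiLC. For shared distal regions, 10 points gave 38 higher in SOX2-ON than in SOX2-OFF, 37 in the reverse, 31 higher in SOX2-OFF than in CEpiLC and 36 in the reverse. Without the 3 chromosomes these were 11 for SOX2-ON over SOX2-OFF, against 14 in the reverse, 16 for SOX2-ON over CEpiLC, 16 in the reverse and 6 for CEpiLC over SOX2-OFF. Ranked by fold enrichment, 21 were higher in SOX2-OFF than in CEpiLC and 16 in the reverse. A width threshold of 1.5-fold gave 22 wider in SOX2-ON than in SOX2-OFF, 43 in the reverse, 43 wider in SOX2-ON than in CEpiLC, 26 in the reverse, 48 wider in SOX2-OFF than in CEpiLC and 15 in the reverse. The cause of these changes was not tested.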
